A study of Homo sapiens with 6 samples.

Results

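The genes described here are 37 genes of the NRF2 antioxidant response and of iron handling, out of 62700 genes listed in the expression tables. They were taken from a fixed list of symbols for glutathione, thioredoxin, NADPH, heme and iron genes, and the list itself sets no threshold on a measured value. The list was chosen with earlier results of these data known. Shares among the members are therefore descriptions, and no test over the list was made. Of the 37, 32 averaged 1 TPM or more over the libraries and were tested together with the other genes above that level, 14020 genes in all. TPM, the unit of the tables, is a transcript level scaled to transcript length and library total, so it can be compared between genes.

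RNA was taken from SK-Hep1, an established human cell line from a liver adenocarcinoma. Poly(A)-selected libraries were made from 3 samples titled shControl and 3 titled shRAB30-DT, in which the divergent long non-coding RNA RAB30-DT was targeted by short hairpin RNA. The control libraries carry the genotype label WT although their titles name a control hairpin, and neither the number of hairpin sequences nor a shared culture day is labelled. The comparison asks how expression differs once RAB30-DT is lowered in these cells. Nothing in the labels states that replicates were separate cultures grown on their own, so the p-values measure the spread between these libraries, which may be partly technical.

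NRF2, encoded by NFE2L2, is a transcription factor that KEAP1 holds in the cytoplasm and hands over for degradation. Oxidants and electrophiles modify KEAP1, and NRF2 then binds antioxidant response elements together with small MAF proteins and raises genes that make glutathione, reduce thioredoxin, supply NADPH, detoxify quinones and store iron. Iron genes are also set after transcription, when iron regulatory proteins bind hairpins called iron-responsive elements in the untranslated ends of their mRNAs.

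Promoter sequences are shown first because they were searched for the core of the element that NRF2 binds. The motif searched was TGACNNNGC, the core of the antioxidant response element, on both strands from 250 bases before to 50 bases after each RefSeq gene start (GRCh38.p14). Promoters were held for 28 of the 37 genes, and 7 of these genes had at least 1 match. Counted by promoter, 8 of 40 (20.0%) held the core, against 4687 of 35116 promoters (13.35%) in the whole table. The core with the letters TGACTCAGC contains TGACTCA, which is also the AP-1 motif. Elements outside the searched bases were not looked for, and a match alone does not show that NRF2 binds there. Each sequence below reads 5′ to 3′ along the strand of its core, which is in capitals, and the strand follows the coordinates. Matches in GCLM, TXNRD1, GSTP1, KEAP1, ME1 and PGD are given, with PIR and SLC3A2 as examples from the wider list described below. In that list 29 of 113 genes held the core, or 30 of 160 promoters (18.75%). FECH, SESN1 and GSTA4, named below, were among them and are not printed. IDH1 also held a match, and KEAP1 and ME1 each held a further one.
GCLM, chr1:93909446-93909474 (+), core 34 bases before the start: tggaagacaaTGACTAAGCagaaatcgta
KEAP1, chr19:10502784-10502812 (+), core 31 bases before the start: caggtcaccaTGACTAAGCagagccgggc
GSTP1, chr11:67583736-67583764 (+), core 66 bases before the start: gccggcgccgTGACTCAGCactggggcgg
ME1, chr6:83431170-83431198 (-), core 137 bases before the start: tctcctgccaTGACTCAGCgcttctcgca
TXNRD1, chr12:104215670-104215698 (+), core 99 bases before a start: acacgggctaTGACTTCGCtgttgtcacc
TXNRD1, chr12:104215761-104215789 (-), core 8 bases before the same start: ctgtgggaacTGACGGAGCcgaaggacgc
TXNRD1, chr12:104286920-104286948 (-), core 102 bases before another start: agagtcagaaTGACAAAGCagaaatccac
PGD, chr1:10398853-10398881 (-), core 201 bases before the start: agcacctagaTGACATTGCcccggcgagg
PIR, chrX:15493289-15493317 (+), core 26 bases after the start: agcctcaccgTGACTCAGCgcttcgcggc
SLC3A2, chr11:62881652-62881680 (+), core 37 bases before the start: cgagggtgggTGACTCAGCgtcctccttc

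GCLM and KEAP1 had the same core letters, as had GSTP1, ME1, PIR and SLC3A2. The members with a core did not share a direction in the libraries. The values of GCLM, TXNRD1 and GSTP1 were lower in all 3 knockdown libraries than in any control library, those of PGD were higher, and those of KEAP1, ME1 and IDH1 overlapped between the groups.

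The iron-responsive elements of the iron genes are shown because TFRC and the ferritins are regulated through them in opposite directions. A hairpin was searched as a C, 5 bases, a CAGTGN loop and 5 bases able to pair with the first 5, with G-T pairs allowed, in GENCODE v44 canonical transcripts (hg38). Of 20457 coding transcripts, 20 (0.098%) had a match in the 5′ UTR and 122 (0.596%) in the 3′ UTR. Among the members, FTH1, FTL and SLC40A1 had 1 match each in the 5′ UTR and TFRC had 4 in the 3′ UTR, and the loop is in capitals.
FTH1, chr11:61967574-61967601 (-): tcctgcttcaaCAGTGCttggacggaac
FTL, chr19:48965336-48965363 (+): tcttgcttcaaCAGTGTttggacggaac
SLC40A1, chr2:189580661-189580688 (-): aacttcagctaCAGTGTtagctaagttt
TFRC, chr3:196050979-196051006 (-): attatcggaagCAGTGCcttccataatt
TFRC, chr3:196050575-196050602 (-): attatcgggagCAGTGTcttccataatg
TFRC, chr3:196050510-196050537 (-): tgtatcggagaCAGTGAtctccatatgt
TFRC, chr3:196050463-196050490 (-): attatcgggaaCAGTGTttcccataatt

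The targeted RNA was lower on average in the knockdown but not past the test. RAB30-DT (chr11:83072052-83107789, hg38) stood at 18.2, 11.5 and 13.9 TPM in replicates 1, 2 and 3 of the control group and at 11.9, 10.9 and 6.50 TPM in the same order of the knockdown group. The groups overlapped, since knockdown replicate 1 lay above control replicate 2. The log2 fold change of TPM + 1, knockdown minus control, was -0.55 ± 0.27 (SE) with an adjusted p of 0.355 in limma, and the exact permutation test of its TPM gave p = 0.2. The value was -0.30 without knockdown replicate 3 and -0.70 without knockdown replicate 1.

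Libraries within a group also differed from each other. In each library the deviation of 14020 genes from their mean over the 6 libraries was compared with the GC content of their canonical transcripts. Taken in the order of replicates 1, 2 and 3, Spearman's rho was -0.607, 0.297 and 0.489 for the controls and -0.523, 0.022 and 0.33 for the knockdown. The control group spread more widely than the knockdown group: the median coefficient of variation of the members was 21.1% in the controls and 9.31% in the knockdown, and 27 of 32 members (84.4%) varied more among the controls, against 74.9% of all tested genes. Where removing the GC trend of each library changes a call, that is said beside the result. TPM keeps no record of sequencing depth, so the number of reads behind each value is unknown. In a library, 20127 to 21675 genes were above 0, and mitochondrially encoded genes took 8.751% to 11.124% of the TPM.

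The cells held few hepatocyte or endothelial transcripts. Of 13 hepatocyte markers, 6 were at 0 in every library, including ALB, APOB, TTR and HNF4A, and only SERPINA1 exceeded a mean of 1 TPM. The summed TPM of that list was 18.9 to 25.3 in the controls and 29.0 to 38.6 in the knockdown. Of 9 endothelial markers only ENG was above 1 TPM on average, with sums of 65.0 to 88.3 and 62.8 to 83.0 TPM. Among 6 leukocyte markers PTPRC and CD3E were at 0 and CD68 was above 1 TPM, with list sums of 28.6 to 66.9 and 106.6 to 129.2 TPM. CD68 was higher in every knockdown library (1.34, limma adjusted p = 0.0816, and 0.0464 with the GC trend removed). The 8 mesenchymal markers summed to 5430 to 5647 TPM in the controls and 5765 to 6205 TPM in the knockdown, where ACTA2 rose (limma adjusted p = 0.00444). That list went both ways: at an unadjusted p under 0.05, ACTA2 and VIM were higher, and THY1 (-0.54) and SPARC (-0.30) were lower in every knockdown library without passing after adjustment. The 5 epithelial markers summed to 2615 to 3926 and 1919 to 2267 TPM. KRT8 and KRT18 fell (limma adjusted p = 0.0354 and 0.0292), and EPCAM and CDH1 were at or near 0. KRT19 lay the other way, at 390.3, 612.0 and 443.0 TPM in the controls and 725.2, 923.2 and 914.0 TPM in the knockdown (0.84, limma adjusted p = 0.0868, and 0.0153 with the GC trend removed). The part of these shifts in the results below was not tested. In bulk RNA, fewer cells of a type and less RNA per cell cannot be told apart.

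No member passed the test between knockdown and control. By limma with Benjamini-Hochberg adjustment over all tested genes, 0 of the 32 tested members were called at an adjusted p under 0.05, where 146 of 14020 genes (1.04%) were called, 52 higher and 94 lower. At an unadjusted p under 0.05, 7 members (21.9%) were lower in the knockdown, beside 9.7% of all tested genes, and 2 members (6.25%) were higher, beside 7.06%. The 7 lower members were TXNRD1, SRXN1, PRDX1, GCLM, GSR, GSTP1 and TKT, and the 2 higher ones were PGD and TFRC. In 10 members (31.2%) every knockdown library lay below every control library, beside 13.4% of all tested genes, and in 1 member, PGD (3.12%), every knockdown library lay above, beside 9.89%. The median log2 fold change of the tested members was -0.197, beside -0.037 over all tested genes. Of the members, 21 (65.6%) were negative and 11 (34.4%) positive, beside 53.7% and 46.3% of all tested genes. In the wider list described below, 64.8% were negative. The split of calls over all genes depended on the scaling: with median-of-ratios scaling it was 60 higher and 69 lower, and with quantile normalization 78 higher and 83 lower.

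With the GC trend of each library removed, 5 members were called lower and 0 higher by limma. These were GCLM, GSR, TXNRD1, SRXN1 and PRDX3. They make up 15.6% of the tested members, beside 4.83% of all tested genes called lower and 3.96% called higher under the same correction.

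**Figure D1:**
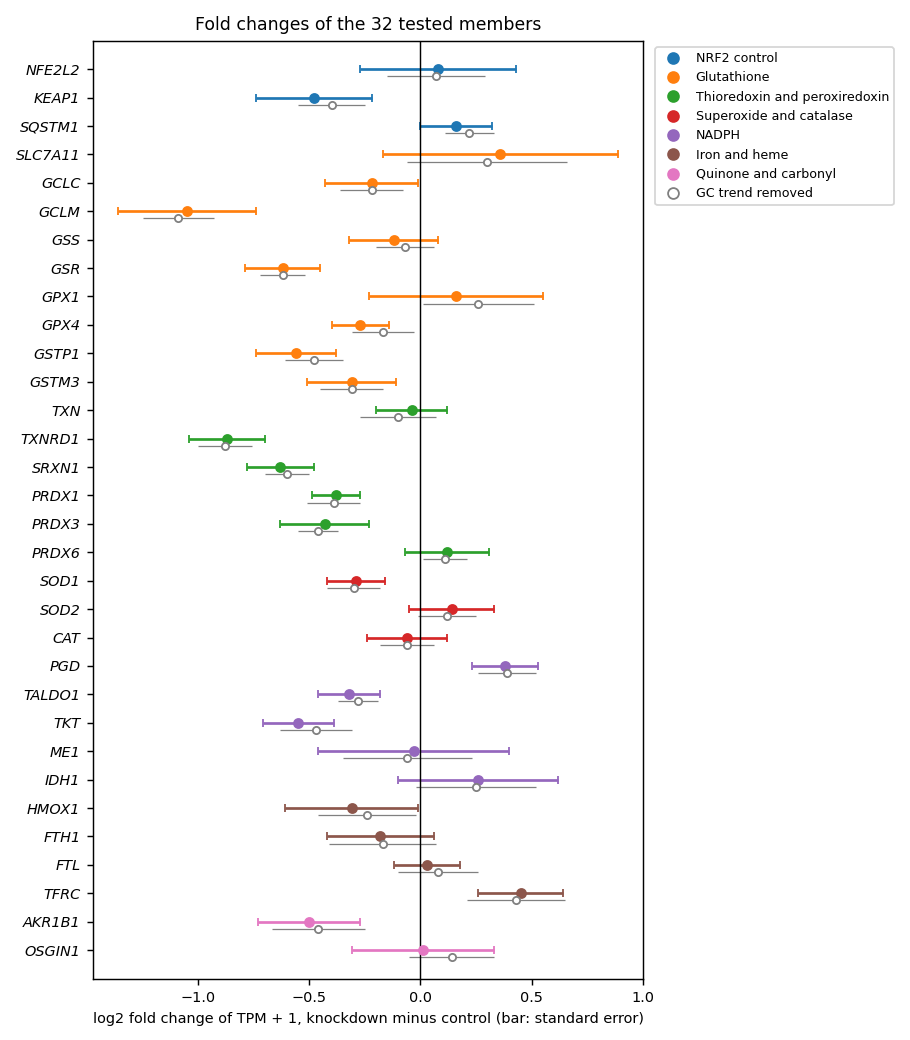
Log2 fold change of TPM + 1 (knockdown minus control, horizontal axis) for each of the 32 tested members, grouped by role, with bars for the standard error over 3 control and 3 knockdown libraries. Filled points are the values as deposited and open points those with the GC trend of each library removed; TXNRD1 at -0.87 and GCLM at -1.05 lie farthest below 0, and TFRC at 0.45 and PGD at 0.38 farthest above it.

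The genes that control NRF2 did not move together. NFE2L2 stood at 85.0, 53.7 and 30.5 TPM in control replicates 1, 2 and 3 and at 67.9, 54.5 and 44.7 TPM in the knockdown, a log2 fold change of 0.08 ± 0.35 (SE, limma adjusted p = 0.932). The controls spanned the whole knockdown range, and without control replicate 3 the value was -0.29. KEAP1, the adaptor that brings NRF2 to its ubiquitin ligase, stood at 19.9, 30.2 and 36.3 TPM in the controls and 16.3, 19.1 and 24.6 TPM in the knockdown (-0.48 ± 0.26, limma adjusted p = 0.394), a difference that was -0.30 without control replicate 3 and -0.72 without control replicate 1. In both groups NFE2L2 was highest and KEAP1 lowest in replicate 1, and the reverse held in replicate 3. The canonical transcripts have 42.1% and 60.2% GC. SQSTM1 encodes p62, an autophagy receptor that binds KEAP1. Its levels were 334.9, 387.5 and 364.4 TPM in the controls and 339.2, 408.2 and 473.8 TPM in the knockdown (0.16 ± 0.16, limma adjusted p = 0.647).

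The largest difference among the glutathione genes was in GCLM, the modifier subunit of glutamate-cysteine ligase, the enzyme of the first step of glutathione synthesis. GCLM (ENSG00000023909.10) stood at 70.7, 41.7 and 29.3 TPM in control replicates 1, 2 and 3 and at 25.4, 18.1 and 19.97 TPM in the knockdown. The groups did not overlap, though control replicate 3 lay close to knockdown replicate 1. The log2 fold change was -1.05 ± 0.31 (SE), which is 0.485-fold, with an adjusted p of 0.152 in limma, and -1.09 with an adjusted p of 0.0137 once the GC trend was removed. Leaving out 1 library at a time gave -1.33 to -0.71 with limma adjusted p of 0.0732 to 0.448. Quantile normalization gave -0.98 (limma adjusted p = 0.156). The catalytic subunit GCLC stood at 23.0, 21.7 and 18.1 TPM in the controls and 22.9, 15.2 and 16.0 TPM in the knockdown, with overlapping groups (-0.22 ± 0.21, limma adjusted p = 0.642).

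GSR, glutathione reductase, returns oxidised glutathione to its reduced form with NADPH. It stood at 35.0, 29.3 and 27.7 TPM in the controls and at 20.7, 19.95 and 18.2 TPM in the knockdown, without overlap. The log2 fold change was -0.62 ± 0.17 (limma, adjusted p = 0.140), and -0.62 with an adjusted p of 0.0177 without the GC trend. With 1 library left out the limma adjusted p was 0.115 to 0.431, and after quantile normalization 0.135. GSTP1, a glutathione transferase, stood at 336.1, 534.0 and 406.6 TPM in the controls and 274.2, 279.3 and 294.3 TPM in the knockdown. Its groups did not overlap either, and the controls spread far more widely than the knockdown (-0.56 ± 0.18, limma adjusted p = 0.174). Without control replicate 1, the value was -0.72 and the adjusted p 0.0493, whereas leaving out any other 1 library gave -0.59 to -0.39 with adjusted p of 0.201 to 0.474. Quantile normalization gave -0.36 (limma adjusted p = 0.36), and removing the GC trend gave -0.48 (limma adjusted p = 0.0657). GPX4, which reduces lipid hydroperoxides in membranes, stood at 308.7, 323.8 and 338.8 TPM in the controls and 250.8, 279.7 and 277.4 TPM in the knockdown (-0.27 ± 0.13, limma adjusted p = 0.337). After quantile normalization the difference was -0.05 (limma adjusted p = 0.86).

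SLC7A11, the cystine-importing subunit of the exchanger that feeds glutathione synthesis, showed no common direction. It stood at 13.2, 9.14 and 1.93 TPM in control replicates 1, 2 and 3 and at 10.4, 8.57 and 7.25 TPM in the knockdown. The single low control, replicate 3, set the sign: the log2 fold change was 0.36 ± 0.53 (limma, adjusted p = 0.767) with all libraries and -0.31 without that replicate. The remaining glutathione genes had overlapping groups. GSS, glutathione synthetase, spanned 51.7 to 78.9 TPM in the controls and 51.1 to 60.6 in the knockdown. GPX1, a cytosolic glutathione peroxidase, spanned 99.96 to 289.4 and 152.0 to 278.4 TPM, and GSTM3, another transferase, 24.3 to 34.8 and 19.9 to 27.1 TPM. Summed over the 9 glutathione genes, the level was 1155 ± 166 TPM (SD, n = 3) in the controls and 916.5 ± 79.0 in the knockdown. Of the 9 fold changes 7 were negative, where 53.7% of all tested genes were negative.

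The thioredoxin genes gave the member with the lowest p, TXNRD1, a selenoprotein that reduces thioredoxin with NADPH. TXNRD1 (ENSG00000198431.18, chr12:104215779-104350307) stood at 1064, 877.3 and 688.9 TPM in control replicates 1, 2 and 3 and at 465.1, 463.5 and 485.2 TPM in the knockdown. The 3 knockdown libraries lay close together and well below the lowest control. The log2 fold change was -0.87 ± 0.17 (SE), or 0.546-fold, with an unadjusted p of 0.000759 and an adjusted p of 0.0588 in limma. The adjusted p was 0.0489 when only genes averaging 5 TPM or more were tested, 0.0114 with the GC trend removed, 0.0391 without control replicate 1 and 0.0263 without control replicate 3. It was 0.135 after quantile normalization and 0.186 to 0.257 without control replicate 2 or any 1 knockdown library. TXNRD1 overlaps 3 expressed genes (RPL18AP3, EID3 and ENSG00000257732), and whether strand was used in counting is not given in the sources used here.

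SRXN1, sulfiredoxin, restores peroxiredoxins that have been overoxidised. It stood at 70.5, 72.5 and 74.4 TPM in the controls and 47.3, 44.3 and 48.3 TPM in the knockdown, with little spread in either group. The log2 fold change was -0.63 ± 0.15 with an adjusted p of 0.0922 in limma and 0.0188 with the GC trend removed. Leaving out 1 library at a time gave fold changes of -0.65 to -0.59 with limma adjusted p of 0.0601 to 0.4. After quantile normalization the limma adjusted p was 0.144. PRDX1, a cytosolic peroxiredoxin that breaks down hydrogen peroxide, stood at 913.4, 819.8 and 892.3 TPM in the controls and 665.5, 646.5 and 696.8 TPM in the knockdown. These groups were also separate (-0.38 ± 0.11, limma adjusted p = 0.149). PRDX3, the mitochondrial peroxiredoxin, stood at 283.4, 217.0 and 170.0 TPM and at 182.1, 154.2 and 150.2 TPM. Control replicate 3 lay inside the knockdown range, and PRDX3 was called once the GC trend was removed (limma adjusted p = 0.0272). It was not called after quantile normalization (limma adjusted p = 0.621) or with 1 library left out (0.141 to 0.643).

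TXN itself, the substrate of TXNRD1, was among the most abundant members. It stood at 1145, 783.3 and 886.0 TPM in the controls and at 978.6, 825.5 and 896.4 TPM in the knockdown, with full overlap (-0.04 ± 0.16, limma adjusted p = 0.916; 0.10 after quantile normalization). PRDX6, which also acts as a phospholipase, spanned 164.0 to 249.8 TPM in the controls and 187.9 to 230.1 in the knockdown. PRDX2 was listed at 0, 0 and 0.19 TPM in the controls and 0, 0.08 and 0 TPM in the knockdown, below the level tested. It overlaps HOOK2. Over the 7 genes of this role the summed level was 3185 ± 470 TPM (SD, n = 3) in the controls and 2463 ± 107 in the knockdown.

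**Figure D2:**
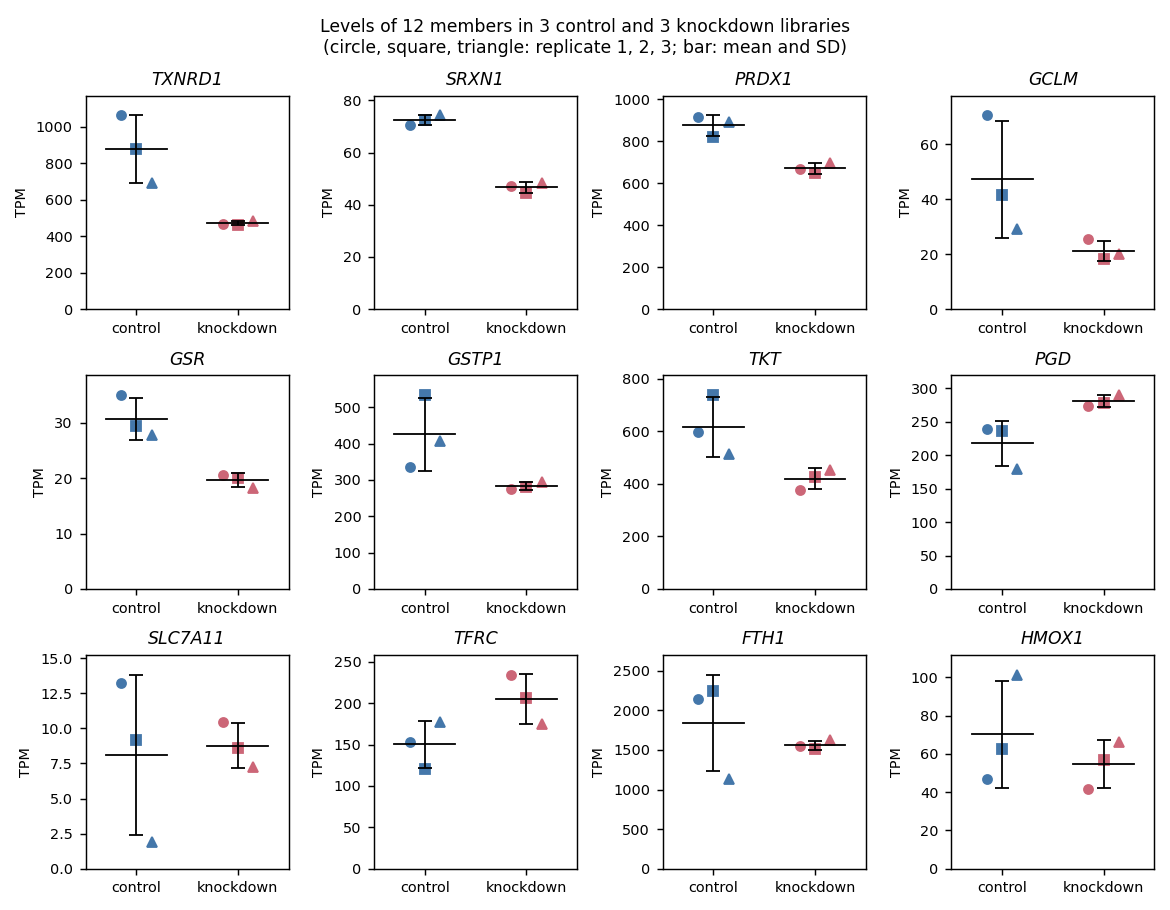
TPM (vertical axes, starting at 0) of 12 members in each of 3 control (blue) and 3 knockdown (red) libraries, with replicate 1, 2 and 3 as circle, square and triangle and bars for the mean and SD. In TXNRD1, SRXN1, PRDX1, GCLM, GSR, GSTP1 and TKT all knockdown points lie below all control points, in PGD above them, and in SLC7A11, TFRC, FTH1 and HMOX1 the groups overlap.

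Of the genes for superoxide and hydrogen peroxide, SOD1, the cytosolic superoxide dismutase, stood at 329.8, 288.7 and 291.5 TPM in the controls and 247.7, 241.3 and 251.7 TPM in the knockdown, without overlap. Its log2 fold change was -0.29 in the reported fit and -0.07 after quantile normalization. SOD2, the mitochondrial form, spanned 41.0 to 59.7 TPM in the controls and 50.2 to 56.7 in the knockdown, and CAT, catalase, 13.0 to 17.4 and 13.8 to 15.1 TPM.

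Of the genes linked to NADPH, those of the pentose phosphate pathway did not share a direction. TKT, transketolase of the non-oxidative pentose phosphate pathway, stood at 597.0, 738.0 and 514.4 TPM in control replicates 1, 2 and 3 and at 375.5, 426.5 and 453.3 TPM in the knockdown. All knockdown libraries lay below the controls (-0.55 ± 0.16, limma adjusted p = 0.152). TALDO1, transaldolase of the same branch, stood at 120.9, 146.7 and 141.0 TPM in the controls and 110.3, 107.0 and 107.7 TPM in the knockdown, again without overlap. PGD, 6-phosphogluconate dehydrogenase, which makes NADPH in the oxidative branch, was the member with all knockdown libraries above the controls. It stood at 239.0, 235.9 and 179.1 TPM in the controls and 273.7, 278.8 and 290.5 TPM in the knockdown (0.38 ± 0.15, limma adjusted p = 0.273), and the difference was 0.24 without control replicate 3.

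ME1, malic enzyme, and IDH1, the cytosolic isocitrate dehydrogenase, were marked by a single low control library. ME1 stood at 11.5, 7.55 and 2.53 TPM in control replicates 1, 2 and 3, and the knockdown spanned 5.54 to 6.87 TPM. IDH1 stood at 109.5, 80.2 and 35.7 TPM, and the knockdown spanned 75.6 to 85.5 TPM. In ME1, IDH1 and SLC7A11, 3 of 32 members (9.38%), control replicate 3 was below 50% of the lower of the other controls, as in 6.27% of all tested genes. It was the lowest control in 18 members (56.2%), beside 49.4% of all tested genes.

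**Figure D3:**
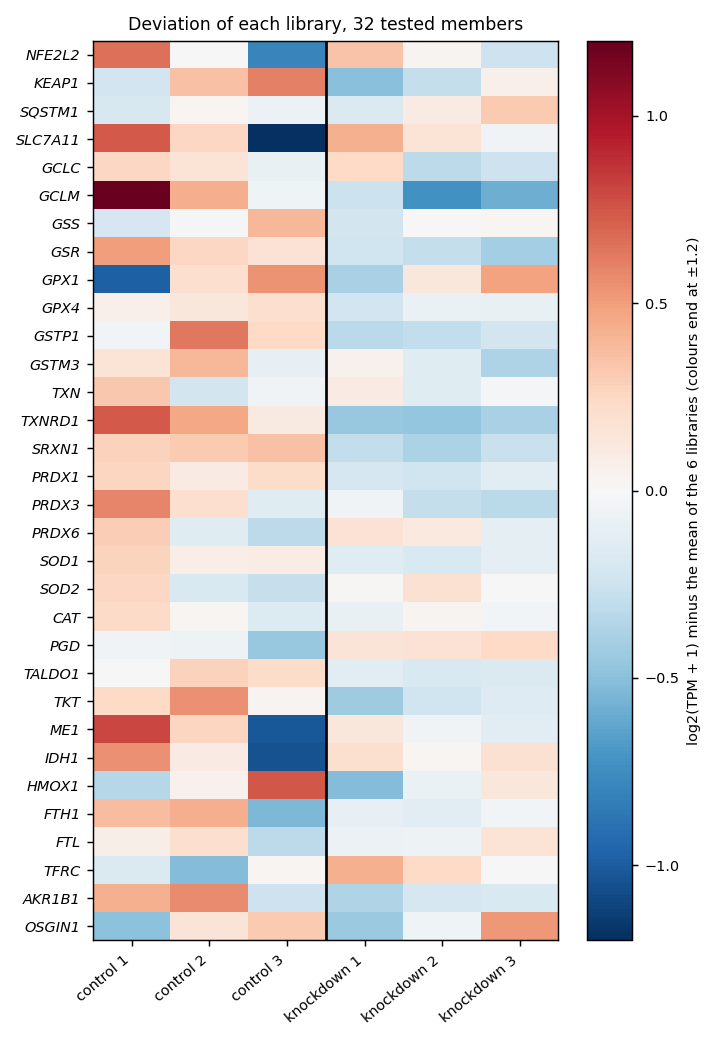
Deviation of log2(TPM + 1) from the mean of the 6 libraries (colour, ending at ±1.2) for the 32 tested members (rows) in control and knockdown replicates 1 to 3 (columns, parted by a line). GCLM, GSR, TXNRD1, SRXN1 and PRDX1 are blue in all knockdown libraries, while SLC7A11, ME1 and IDH1 are dark blue only in control replicate 3.

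The iron and heme genes included the most abundant members. FTL, the light chain of the iron store ferritin, stood at 5100.3, 5564 and 3899 TPM in the controls and 4614, 4655 and 5434 TPM in the knockdown, with overlap (0.03 ± 0.15, limma adjusted p = 0.948; -0.27 after quantile normalization). FTH1, the heavy chain that oxidises iron, stood at 2142, 2239 and 1136 TPM in the controls and 1543, 1509.8 and 1620 TPM in the knockdown. Control replicate 3 lay below the knockdown range and the other controls above it (-0.18 ± 0.24, limma adjusted p = 0.753), and without it the value was -0.49 with an adjusted p of 0.0811. FTH1 and FTL together made up 45.2% to 55.8% of the summed TPM of all members in a library. Both have processed pseudogenes, 25 for FTH1 and 16 for FTL in the tables, with summed mean levels of 6.04 and 9.55 TPM, so some reads may have been assigned between copies.

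TFRC, the transferrin receptor that takes up iron, stood at 153.6, 120.7 and 177.3 TPM in control replicates 1, 2 and 3 and at 234.4, 205.7 and 174.4 TPM in the knockdown. Knockdown replicate 3 lay just below control replicate 3, so the groups overlapped (0.45 ± 0.19; limma, unadjusted p = 0.0452, adjusted p = 0.285). HMOX1, heme oxygenase 1, frees iron from heme and is a classic NRF2 and BACH1 target. It stood at 47.0, 62.3 and 101.3 TPM in the controls and 41.5, 56.9 and 66.0 TPM in the knockdown (-0.31 ± 0.30, limma adjusted p = 0.638), and at -0.01 without control replicate 3. SLC40A1, the iron exporter ferroportin, was near the limit at 0.83, 0.47 and 1.15 TPM in the controls and 0.97, 0.84 and 0.56 TPM in the knockdown, and was not tested.

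Among the quinone and carbonyl genes, NQO1, a quinone reductase often used as a marker of NRF2 activity, was barely present. It was listed at 1.40, 1.06 and 0.46 TPM in the controls and 0.12, 0.07 and 0.22 TPM in the knockdown. The groups did not overlap, but the mean lay below the level tested. AKR1B1, an aldose reductase, stood at 129.6, 143.7 and 81.0 TPM in the controls and 75.1, 83.7 and 84.8 TPM in the knockdown. OSGIN1, a growth inhibitor induced by oxidative stress, spanned 4.31 to 8.31 TPM in the controls and 4.47 to 9.70 in the knockdown. AKR1B10 was listed at 0 in all libraries. AKR1C1, a ketosteroid reductase, was listed at 0.82, 0.11 and 0.69 TPM in the controls and 2.51, 1.04 and 0.22 TPM in the knockdown, also below the level tested.

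Ratios of paired genes within a library do not depend on the scaling between libraries, and 6 of them were compared. The smallest p that an exact permutation test can give with 3 against 3 libraries is 0.1, so none of them could pass. The log2 ratio of GCLC to GCLM was -1.62, -0.94 and -0.70 in the controls (replicates 1, 2 and 3) and -0.15, -0.24 and -0.32 in the knockdown. The groups were separate, with a difference of 0.85 (exact permutation p = 0.1, adjusted over the 6 ratios 0.3). TXN to TXNIP, thioredoxin to the protein that binds and inhibits it, gave 5.34, 5.16 and 5.51 in the controls and 2.51, 2.42 and 3.06 in the knockdown, a difference of -2.67 with the same exact p of 0.1 and adjusted p of 0.3. The other 4 ratios overlapped between the groups, with differences of 1.08 for SLC7A11 to SLC3A2, -0.20 for FTH1 to FTL, 0.63 for TFRC to FTH1 and 0.59 for NFE2L2 to KEAP1, and exact permutation p-values of 0.4 to 0.6 (adjusted 0.6). Their sizes rested on single libraries: with 1 library left out, the differences ranged from 0.06 to 1.86, from -0.37 to -0.10, from 0.30 to 1.07 and from 0.01 to 1.19, in the same order. Without control replicate 3 they were 0.06, -0.37, 1.07 and 0.01, without control replicate 1 they were 1.86, -0.10, 0.51 and 1.19, and without control replicate 2 that of TFRC to FTH1 was 0.30. Without knockdown replicate 1 or 3, that of NFE2L2 to KEAP1 was 0.30 or 0.89.

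**Figure D4:**
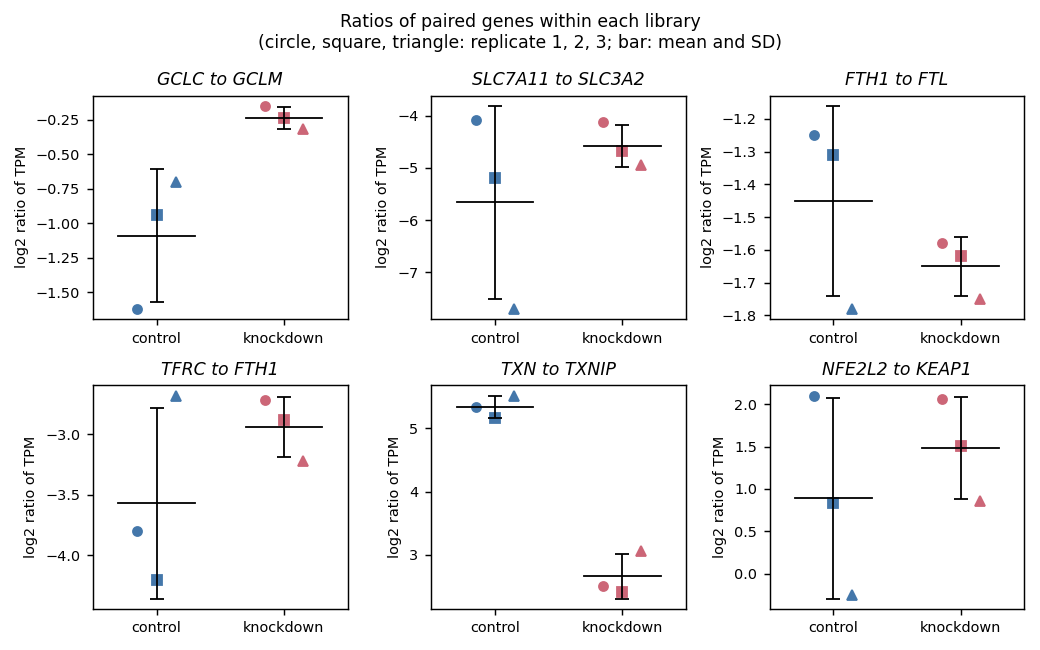
Log2 ratio of the TPM of paired genes (vertical axes, not starting at 0) in each of 3 control (blue) and 3 knockdown (red) libraries, with replicate 1, 2 and 3 as circle, square and triangle and bars for the mean and SD. GCLC to GCLM lies higher and TXN to TXNIP lower in all knockdown libraries, and in the other panels the groups overlap.

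A wider list of genes that act beside the members matched 141 gene identifiers and was read in the same fit. Of these 122 were tested and 3 (2.46%) were called, 1 higher and 2 lower, beside 1.04% of all tested genes. At an unadjusted p under 0.05, 17 (13.9%) were lower and 9 (7.38%) higher, beside the 9.7% and 7.06% of all tested genes given above. The median log2 fold change was -0.107, beside -0.037 over all tested genes.

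TXNIP, which binds reduced thioredoxin, rose the most. It stood at 28.3, 22.0 and 19.4 TPM in the controls and 171.3, 154.5 and 107.3 TPM in the knockdown, 5.96-fold (2.58 ± 0.23, limma adjusted p = 0.00477), and was called without any 1 library. RPIA, ribose-5-phosphate isomerase of the branch that holds TKT and TALDO1, fell from 34.8, 37.9 and 35.2 TPM to 9.86, 11.6 and 11.3 TPM (-1.63 ± 0.17, limma adjusted p = 0.00878). FECH, ferrochelatase, which puts iron into heme, fell from 29.7, 30.2 and 21.5 TPM to 11.7, 11.3 and 10.9 TPM (-1.18 ± 0.19, limma adjusted p = 0.0417). Without control replicate 2 or any 1 knockdown library, the adjusted p was 0.0607 to 0.0751 for RPIA and 0.14 to 0.191 for FECH.

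BACH1, a repressor at antioxidant response elements that heme inactivates, stood at 22.2, 14.6 and 12.3 TPM in the controls and 39.2, 33.1 and 31.1 TPM in the knockdown, with separate groups (1.07 ± 0.24, limma adjusted p = 0.0842). NFE2L1, a factor related to NRF2, stood at 110.0, 157.2 and 179.7 TPM and at 72.4, 97.2 and 94.3 TPM (-0.74 ± 0.22, limma adjusted p = 0.152). PIR, an iron-binding nuclear protein, stood at 16.9, 17.3 and 7.04 TPM and at 4.58, 3.05 and 3.44 TPM (-1.57 ± 0.34, limma adjusted p = 0.0802). The carbonyl reductase CBR3 stood at 13.0, 18.9 and 19.0 TPM and at 4.30, 7.65 and 7.29 TPM (-1.29 ± 0.26, limma adjusted p = 0.0685). All 4 had separate groups. None passed the test as reported, and all 4 passed with the GC trend removed. Limma then gave adjusted p of 0.00567 for BACH1, 0.0376 for NFE2L1, 0.0261 for PIR and 0.013 for CBR3. None passed after quantile normalization, with limma adjusted p of 0.0523, 0.233, 0.0523 and 0.0769 in the same order. Without control replicate 2 or any 1 knockdown library, it was 0.23 to 0.318, 0.321 to 0.398, 0.186 to 0.314 and 0.19 to 0.223. BACH1, NFE2L1 and CBR3 passed without control replicate 1, and PIR without control replicate 3. These 4 were named for the size of their change. Of the 122 tested genes of the wider list, 25 (20.5%) were lower in every knockdown library and 13 (10.7%) higher. Over all tested genes the shares were 13.4% and 9.89%. With the GC trend removed, 9 (7.38%) were called lower and 7 (5.74%) higher, beside 4.83% and 3.96% of all tested genes.

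Further genes with the largest differences of their groups did not pass in the reported fit. With the GC trend removed, limma gave adjusted p of 0.0218 for GPX3, 0.0167 for SESN1, 0.0332 for CYBRD1 and 0.0292 for MTHFD1. Those of SCD, DHODH, SLC3A2 and GSTA4 stayed above 0.05. After quantile normalization, the limma adjusted p was 0.101 for GPX3, 0.0743 for SESN1, 0.122 for CYBRD1 and 0.217 for MTHFD1. GPX3, a secreted glutathione peroxidase, stood at 0, 0.08 and 0.53 TPM in the controls and 1.99, 2.25 and 3.36 TPM in the knockdown. SESN1, a sestrin, stood at 3.14 ± 0.846 TPM (SD, n = 3) in the controls and 7.26 ± 0.773 in the knockdown. SCD, the stearoyl-CoA desaturase, stood at 555.6, 505.7 and 126.7 TPM in the controls and 916.9, 871.9 and 756.0 TPM in the knockdown. CYBRD1, a ferric reductase, stood at 52.1, 46.9 and 22.7 TPM in the controls and 76.6, 72.6 and 69.6 TPM in the knockdown. SLC3A2, the partner of SLC7A11, stood at 224.7, 334.4 and 400.3 TPM in the controls and 182.8, 219.1 and 222.4 TPM in the knockdown. These groups were separate, as were those of DHODH, a mitochondrial enzyme of pyrimidine synthesis (10.7 ± 3.65 and 5.24 ± 1.87 TPM, SD, n = 3), and MTHFD1, a folate enzyme (98.4 ± 12.8 and 62.5 ± 10.4 TPM, SD, n = 3). GSTA4, a transferase, overlapped between the groups at 3.36 ± 2.48 and 1.36 ± 0.43 TPM (SD, n = 3).

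**Figure D5:**
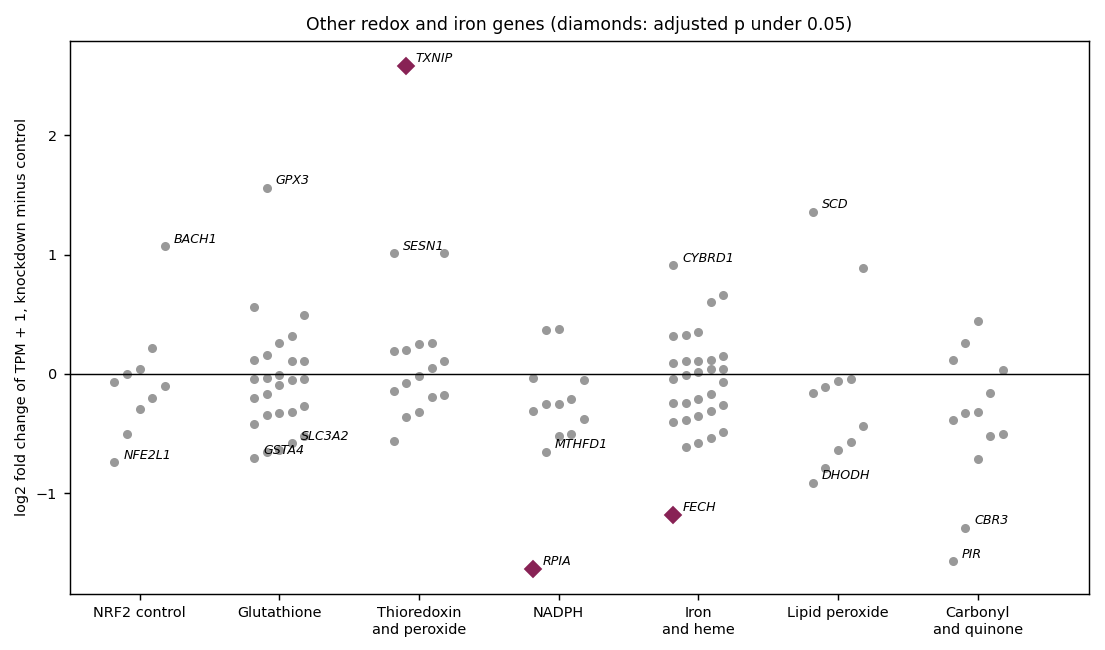
Log2 fold change of TPM + 1 (knockdown minus control, vertical axis) of the 122 tested genes of the wider list, in columns by group and spread sideways only to separate points. Diamonds mark the 3 genes with an adjusted p under 0.05 in limma, TXNIP at 2.58, RPIA at -1.63 and FECH at -1.18, and labels mark the genes named in the text.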

How the data were processed

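Gene levels came from 6 poly(A) RNA-seq libraries, 3 control and 3 knockdown, grouped by their titles. The authors deposited TPM per gene, one table per library. The paper's methods name fastp, STAR and RSEM, whereas the labels name fastp and HISAT2 2.0.5 with hg38, and which aligner made these values was not settled. All 62700 gene identifiers, versions included, were in GENCODE v44. No counts were used, so read depth is unknown.

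TPM were analysed as log2(TPM + 1) in limma 3.58.1 (R 4.3.3; lmFit, eBayes with trend, two-group design without a term for the replicate number) over genes averaging 1 TPM or more, with Benjamini-Hochberg adjustment over all 14020 genes and calls at an adjusted p under 0.05. Fold changes on that scale understate changes of low genes. Ratios and RAB30-DT were tested by exact permutation. The GC trend was a loess fit (span 0.3) per library. Scripts were tested on simulated data.

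The members, the wider list, the markers and the rule for named genes were chosen with earlier results of these data known. Members were all accounted for, and statistics were given for those with an unadjusted p under 0.05 and for fixed key genes where tested. For PRDX3 and SOD1 some values were added to show how they depend on the settings. Of the wider list, called genes, the 2 largest changes of each group and ratio partners were named.

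Other settings tried were a pseudocount of 0.1 or 5, testing all genes or those averaging 5 TPM or more, other scalings and variance models, library weights, a replicate block, GC correction and each library left out. Promoters were RefSeq sequences (GRCh38.p14); AKR1B10, FTH1, GSR, GSS, HMOX1, PRDX1, PRDX6, SLC7A11 and SOD1 had no entry.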

Additional observations from a re-analysis of the deposited data

How the results depend on the processing

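The number of calls depended on the model. Over all genes, 146 were called in the reported fit, 13 when low genes were kept, 1232 with the GC trend removed, 3218 with arrayWeights and 12 to 489 with 1 library left out (12 without control replicate 2, 489 without control replicate 1, and 15 to 18 without any 1 knockdown library). Called members went from 0 to 1 among genes averaging 5 TPM or more, where 152 genes were called in all. With arrayWeights 14 of 32 members were called (1 higher and 13 lower), beside 3218 of 14020 genes. With the GC trend removed 5 members were called, all lower (15.6%), beside 4.83% of all tested genes called lower. With 1 library left out 0 to 2 were called (TXNRD1 and GSTP1 without control replicate 1, TXNRD1 without control replicate 3). Members lower at an unadjusted p under 0.05 went from 7 to 11 with no filter, 4 with quantile normalization, 16 with arrayWeights, 11 with the GC trend removed and 6 to 11 with 1 library left out. Members higher went from 2 to 1 with median-of-ratios scaling, 0 with eBayes without trend, 1 with the GC trend removed and 0 to 1 with 1 library left out. Calls over all genes also rose with arrayWeights and with the GC trend removed. The unadjusted counts, here and for the replicate block below, have no share over all genes beside them. Neither these nor the counts of called members are read as a trait of the members. Called genes of the wider list went from 3 to 35 with arrayWeights, 16 with the GC trend removed and 1 to 9 with 1 library left out. The causes of these differences were not tested.

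Replicate numbers were not taken as pairs in the reported fit, and the labels do not state whether same-numbered libraries belong together. The correlation between same-numbered libraries of their deviations from the group means was 0.41, 0.0359 and 0.279 for replicates 1, 2 and 3. With the GC trend removed it was 0.188, 0.0138 and 0.124. These values do not settle whether the libraries are pairs. With a replicate block 861 genes, 4 members (GCLM, GSR, TXNRD1 and SRXN1) and 12 genes of the wider list were called, and 13 members were lower at an unadjusted p under 0.05. With the block and the GC trend removed together these counts were 1056, 6, 15 and 11, and 1 member was higher at that p.

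For the 19 members with statistics under all alternatives, 323 values kept both their sign and their call status. A further 27 kept their sign and passed the threshold where the reported fit did not, and 11 changed sign. NFE2L2 ranged from -0.29 to 0.43 and SLC7A11 from -0.31 to 0.83 with 1 library left out, TXN was 0.10 with quantile normalization, 0.06 with arrayWeights and -0.17 to 0.11 with 1 library left out, and FTL was -0.27, -0.17 and -0.12 to 0.13. RAB30-DT stayed negative and uncalled under all alternatives run, at -0.24 with arrayWeights and -0.70 to -0.30 with 1 library left out. The 6 ratios kept their sign with a pseudocount of 1 and with each library left out, the alternatives run for them, and their test could not pass under any.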
